A study of Mus musculus with 11 samples.

Results

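The response of wild-type (Rα+/+) peritoneal macrophages to IL-4c, a long-lived complex of interleukin-4 with an antibody, was measured at the transcript level. The samples, taken by their titles, are 3 mice injected with IL-4c (mice 5, 6 and 7) and 2 mice injected with PBS, the vehicle (mice 1 and 2), and these 5 mice are 5 of 11 in the series. Interleukin-4 acts on macrophages through its receptor chain Il4ra and the transcription factor Stat6, and macrophages exposed to it take on the "M2" state, with effector proteins such as RELMα (encoded by Retnla), the chitinase-like protein Ym1 (Chil3) and arginase 1 (Arg1). In the peritoneal cavity, the resident macrophages are also known to divide in place when the cytokine is supplied as such a complex.

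All were female C57BL/6 mice of 6 to 8 weeks, injected intraperitoneally on days 0 and 2, with cells recovered on day 4. Each dose held 2.5 µg IL-4 bound to 12 µg of 11B11, an antibody against it. CD11b+F4/80+ cells were sorted, 5000 of them per mouse were lysed, and transcripts were counted on the Nanostring Myeloid Innate Immunity v2 panel, in which barcoded probes are counted without amplification. The wild-type mice came from the colony of the RαTd allele, in which Retnla exons are replaced by the TdTomato reporter after a cre-deleter cross, so the deletion is constitutive. The other 6 mice, 2 PBS-treated and 4 IL-4c-treated RαTd/Td homozygotes (here the knockout), serve only to estimate the spread and for 1 comparison of genotypes.

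Of 754 genes in the table, 309 were at a floor of 30 in all 11 mice, and the remaining 445, all with a mean above 30, were tested. Values are counts scaled to 4 housekeeping genes (normalised values), and a value at the floor has no order and gives only a limit. Among the 445, 309 were above the floor in all 5 wild-type mice and 19 were at the floor in all 5. The depth, as the summed counts of genes above the floor, was 297254 and 551546 for mice 1 and 2 and 487815 to 574505 for mice 5, 6 and 7, and the lowest value that could be measured lay between 30.8 and 48.2. Positive control probes were spiked in at fixed amounts. Their geometric means were 1021 and 874 counts after PBS and 365, 301 and 441 counts after IL-4c. In the knockout mice they were 903 and 853 after PBS and between 507 and 623 after IL-4c. The lanes thus differed with treatment, and a lane effect cannot be told apart from that of IL-4c. Its part in the results was not tested. Of 11 markers of large peritoneal macrophages on the panel, all 11 were above the floor after PBS and 9 after IL-4c. No marker of T or NK cells (5 on the panel) or eosinophils (7) was above the floor in a wild-type mouse. Of 7 mast cell markers on the panel, Cpa3, Hdc or both were above the floor in every wild-type mouse. Their summed levels were 243 and 109 after PBS and 204, 147 and 198 after IL-4c, and neither gene was called.

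Between the IL-4c and PBS mice, 206 of the 445 genes differed (46.3% called at an adjusted p of 0.05 or less, limma). Of these, 62 rose (13.9%) and 144 fell (32.4%), and the 3 IL-4c values did not overlap the 2 PBS values for any of them. Over all genes tested, the groups failed to overlap for 20.7% in the upward and 42.9% in the downward direction. The largest fitted rise was 11.21 on the log2 scale (Chil3) and the largest fitted fall -5.85 (Cxcl13), each against a group at the floor. The median change of called genes was 1.07 on the log2 scale upward and -1.06 downward, and 17 rises and 27 falls were at least 2 on that scale. With 3 against 2 mice an exact permutation test of a single gene cannot go below a two-sided p of 0.1, so the calls rest on limma's spread, estimated over all 4 groups.

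The balance of rises and falls depended on the scaling. The median gene changed by -0.18 (log2) with the housekeeping scale, by 0.12 after centring each mouse on its median gene, and by -0.37 after scaling to 14 other reference genes, of which 5 were called higher on the housekeeping scale. Centring gave 106 higher and 92 lower, quantile normalization 104 and 107, and the other reference genes 46 and 192, which puts the share of rises among calls at 53.5%, 49.3% and 19.3%, against 30.1% on the housekeeping scale. Under all 4 scalings 46 genes were called higher (10.3%) and 90 lower (20.2%), and no called gene was called in the opposite direction under any of them. Without mouse 1, 97 of the calls were falls and 50 were rises. Below, a gene whose call did not hold under all 4 scalings is said to depend on the scaling.

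**Figure D1:**
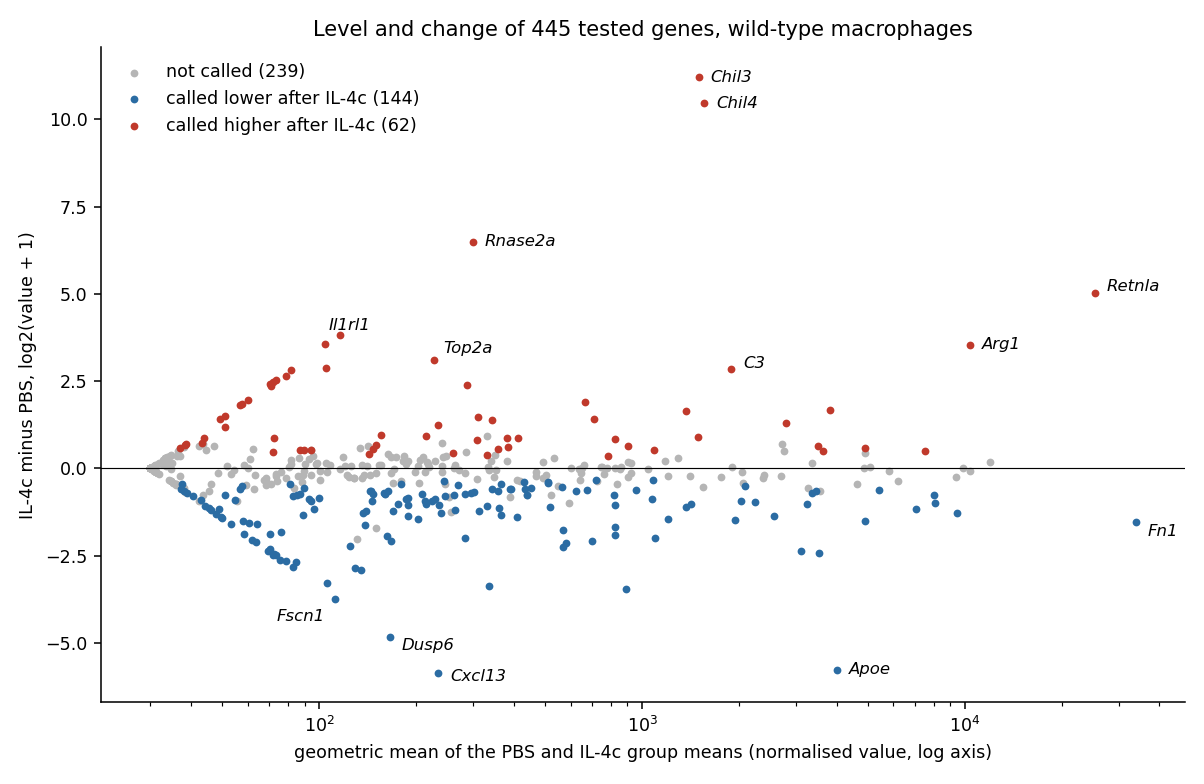
Change against level for the 445 tested genes. The x axis is the geometric mean of the 2 group means (normalised value, log axis), the y axis the difference between IL-4c and PBS in log2(value + 1), and each point is 1 gene, red if called higher (62), blue if called lower (144), grey if not called (239). Chil3 and Chil4 stand above 10 on the y axis, and Apoe and Cxcl13 below -5; the straight edges at the left are genes at the floor in 1 group.

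The largest rises were in secreted effectors of the M2 state. Chil3 was at the floor in both PBS mice and measured 56993, 75307 and 91581 after IL-4c, at least 1902-fold higher (limma, adjusted p = 1.74e-09). Chil4, which encodes the related chitinase-like protein Ym2, measured 53.1 and the floor after PBS and 44973, 58644 and 72000 after IL-4c. This was a change of 10.46 on the log2 scale (limma, adjusted p = 9.39e-09), or 9.97 with 1 common floor for all mice. The probes for these close paralogs could share transcripts, which the values do not resolve. Retnla, already high after PBS at 4631 and 4141, reached 115675, 147349 and 171588, a 32.7-fold rise (log2 change 5.03, SE 0.15, adjusted p = 9.07e-09). Retnla was at the floor in all 6 knockout mice, as their genotype labels require.

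Together Retnla, Chil3 and Chil4 took 0.98% and 1.00% of the panel's summed signal above the floor after PBS and 39.0%, 45.9% and 50.3% of it after IL-4c. Arg1, which converts arginine to ornithine, differed between the PBS mice, at 1532 in mouse 1 and 5062 in mouse 2, and was 35072, 30921 and 31521 after IL-4c. Its rise was 11.6-fold (log2 change 3.54, SE 0.41, adjusted p = 1.36e-04). Rnase2a, a member of the eosinophil-associated ribonuclease family, went from the floor in both PBS mice to 1656, 3812 and 3450, at least 72.5-fold higher (adjusted p = 9.59e-06).

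The upstream sequences of these effector genes were read from the RefSeq promoter windows (GRCm38.p6, 250 bases before to 50 after each start) and searched for the STAT6-type motif TTCNNNNGAA and for TTCNNNGAA, the spacing bound by other STAT proteins. Both motifs are their own reverse complement, so a scan of 1 strand covers both, and matches of the 2 spacings are different stretches. Retnla held the first in the plus strand stretch chr16:48842434-48842503, ending 136 bases before its start. Chil3 and Chil4 both held the second at the same letters, in the minus strand stretches chr3:106167698-106167766 and chr3:106219641-106219709, and 65 of the 69 bases printed were equal between them. The stretches are shown because these 3 genes hold the largest shares of the counted signal after IL-4c; the motif is in capitals.
Retnla: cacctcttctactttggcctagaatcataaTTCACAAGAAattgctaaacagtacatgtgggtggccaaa
Chil3: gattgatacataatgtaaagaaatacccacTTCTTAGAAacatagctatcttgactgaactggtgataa
Chil4: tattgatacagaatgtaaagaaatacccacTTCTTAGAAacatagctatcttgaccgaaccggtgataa
Over all 27025 genes with a window, 8.01% held the STAT6-type motif and 9.55% the other. Of the 445 tested genes 338 had a window, and 5.92% of these held the STAT6-type motif and 12.1% the other. Of the 62 genes called higher, 50 had a window and 8.00% and 12.0% of these held the 2 motifs. Of the 144 called lower, 106 had a window and 6.60% and 13.2% held them. Among the 12 largest rises 9 genes had a window and 3 held the STAT6-type motif, and among the 12 largest falls 10 had a window and 2 held it. A match is a description of these letters only. Arg1 had no window in the table.

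The M2 activation list as a whole moved in both directions. Of 32 genes on the panel 24 were tested, and 7 rose and 8 fell (62.5% called, against 46.3% of all tested genes). The median log2 change of the list was 0.10, against -0.18 over all genes. Besides the 5 genes above, the rises were Klf4 and Irf4, transcription factors of alternative activation. Klf4 went from 791 and 754 to 2074, 2300 and 2908 (adjusted p = 0.00375), and the call of Irf4 depended on the scaling. The falls were Il4ra, Ccl24, Fn1, Tgfb1, Cd36, Stab1, Alox15 and Trem2, and those of Il4ra, Tgfb1 and Alox15 depended on the scaling. Fn1, fibronectin, fell from 65106 and 50339 to 20704, 20232 and 18494 (2.89-fold, adjusted p = 1.45e-04). Stab1, a scavenger receptor, fell from 474 and 242 to 50.4, 46.1 and 42.9 (7.18-fold). Without mouse 1, Il4ra, Ccl24, Cd36, Alox15 and Trem2 lost their calls, and Fn1, Tgfb1 and Stab1 were still called.

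Several textbook M2 genes were not called. Mrc1, the mannose receptor, was 162 and 203 after PBS and 249.6, 311 and 129 after IL-4c, so the groups overlapped (log2 change 0.24, SE 0.55, adjusted p = 0.771). The chemokine genes Ccl17 and Ccl22, the nuclear receptor Pparg, the cytokine Il10, Egr2 and Socs1 were at the floor in all 5 wild-type mice, so a level below the floor could not be told from none. Igf1, insulin-like growth factor 1, was 314 and 169 after PBS and 300.0, 575 and 480.3 after IL-4c (adjusted p = 0.0874). In the list of IL-4 receptor signalling, 3 of 8 tested genes fell (37.5%, against 32.4% of all tested genes) and none rose, and all 3 depended on the scaling; centring called 1 gene of the list lower and 1 higher. Il4ra itself was 314 and 300.0 after PBS and 197, 120.1 and 191 after IL-4c (log2 change -0.89, adjusted p = 0.0142), a call lost without mouse 1 or without mouse 2. Stat6 was 584 and 483 against 319, 379.8 and 361 (log2 change -0.59, adjusted p = 0.00613), and Stat5b changed by -0.64 (adjusted p = 0.0212). Stat3, Stat5a, Socs3, Jak3 and Pik3cg were not called.

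**Figure D2:**
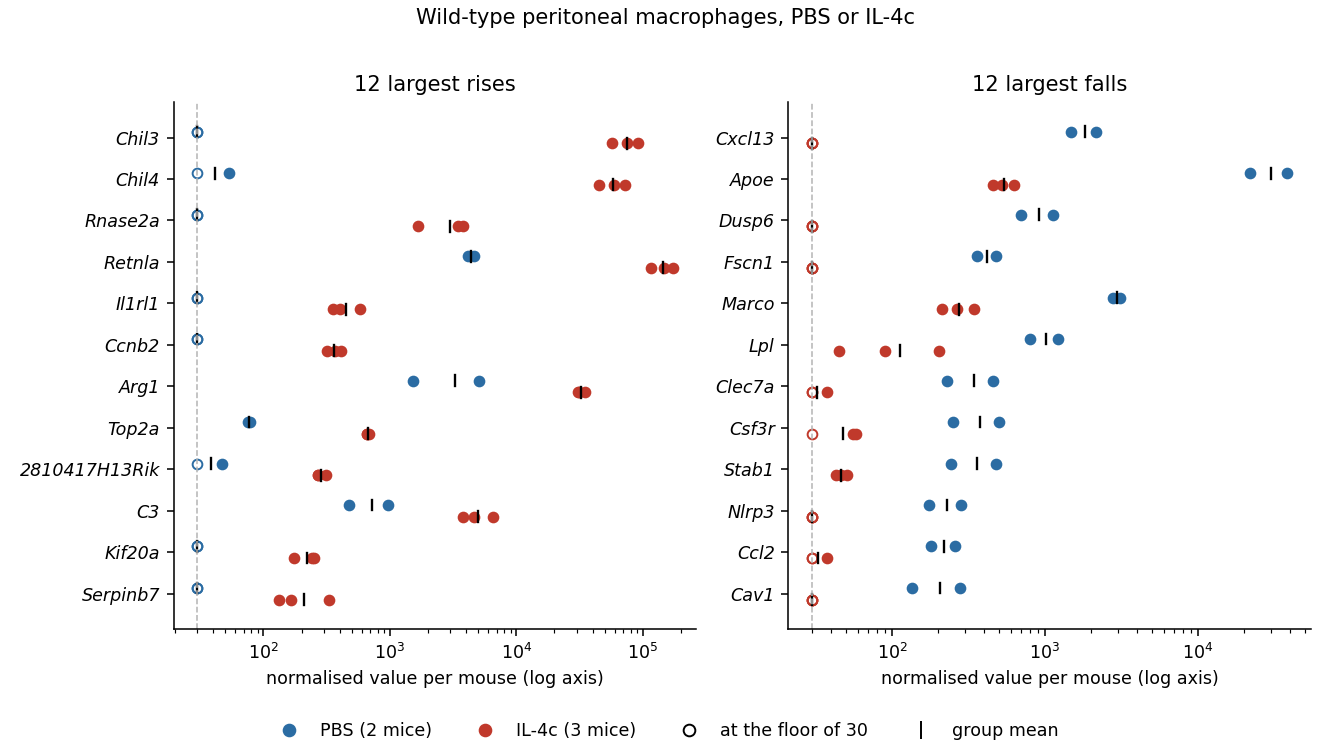
The 12 largest called rises and the 12 largest called falls, by mouse. The x axis is the normalised value (log axis), blue points are the 2 PBS mice, red points the 3 IL-4c mice, open points are at the floor of 30 and black ticks are group means. The groups do not overlap for any of the 24 genes; 6 of the rises start from the floor in both PBS mice and 5 of the falls end there in all 3 IL-4c mice.

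The cell cycle list rose as a whole on this panel, which holds 6 of its genes. All 6 were tested and all 6 were called higher under all 4 scalings, against 10.3% of all tested genes, with a median log2 change of 2.65. The list, like the others, was chosen with earlier results of these data known, so this share is not an independent test. Top2a, the topoisomerase that untangles chromosomes for division, went from 78.8 and 75.7 to 686, 653 and 657, an 8.51-fold rise (log2 change 3.09, SE 0.19, adjusted p = 1.35e-06). Ccnb2, a mitotic cyclin, went from the floor to 409, 366 and 316, at least 9.39-fold higher. The mitotic kinesin Kif20a was at least 5.69-fold higher, Birc5 (survivin) at least 4.46-fold and the anaphase activator Cdc20 at least 4.26-fold, all 3 from the floor in both PBS mice. Mcm5, a subunit of the replicative helicase, was 94.9 and 309.7 after PBS and 519, 467 and 451 after IL-4c (adjusted p = 0.0138), and without mouse 1 its call was lost.

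That list did not hold the spindle checkpoint kinase Ttk, which was at the floor in both PBS mice and reached 90.5, 89.8 and 81.2 (at least 2.26-fold, adjusted p = 1.36e-04). The gene listed as 2810417H13Rik, known for a protein that binds the replication clamp, was at the floor and 47.2 after PBS and 313, 269 and 270.3 after IL-4c (log2 change 2.88, adjusted p = 8.66e-05). The kinetochore gene Ndc80, chosen here after its values were seen, was at the floor after PBS and at 60.7, 54.6 and the floor after IL-4c and was not called (adjusted p = 0.0944).

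In all, 20 tested genes were at the floor in both PBS mice and above it in all 3 IL-4c mice. Of them 18 were called, against 46.3% of all tested genes. The set was picked for groups that do not overlap, so its share of calls is not a result. Il1rl1, which encodes ST2, the receptor for interleukin-33, went to 356, 404 and 581, at least 11.4-fold higher (adjusted p = 1.36e-04). Il6 went to 157, 177 and 204 (at least 4.63-fold, adjusted p = 3.16e-04) and Il1a to 113, 141 and 108 (at least 3.11-fold, adjusted p = 6.26e-05), while Tnf, Il1b, Il12b and Nos2 were at the floor in all 5 mice. Serpinb7, a serine protease inhibitor, went to 132, 164 and 329 (at least 4.99-fold, adjusted p = 0.0103), a call lost without either PBS mouse. Sema4b, Ear3, Dusp2, Acot11, Col4a1 and Nfatc2 were also called. The last 3 measured at most 58.2 after IL-4c, and their change went to 0.02 or less on the log2 scale with 1 common floor. Mapk11 and Pdgfb were the 2 not called.

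The opposite pattern was found in 31 genes, above the floor in both PBS mice and at it in all 3 IL-4c mice, of which 26 were called. This set too was picked for groups that do not overlap, so its share of calls is not a result. Cxcl13, the chemokine that attracts B cells, fell from 2151 and 1486 to the floor, at least 50.8-fold lower (adjusted p = 1.23e-04). Dusp6, a phosphatase that switches off ERK, fell from 1134 and 694, at least 25.2-fold lower (adjusted p = 3.58e-05). Fscn1, the actin-bundling protein fascin, fell from 474 and 358, at least 11.7-fold lower (adjusted p = 2.71e-08). Nlrp3, the inflammasome sensor, fell from 281 and 174, at least 6.29-fold lower, Cav1 (caveolin 1) at least 5.51-fold and the high-affinity IgG receptor Fcgr1 at least 5.38-fold. The formyl peptide receptors Fpr1 and Fpr2, at 175 and 171 and at 166 and 105 after PBS, were at least 4.92-fold and 3.75-fold lower, and the call of Fpr2 was lost without mouse 1. The falls of Skil, Akap13 and Id1, from at most 54.7, went to 0.00 with 1 common floor, and those of Akap13 and Id1 also depended on the scaling.

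B cell, neutrophil and macrophage markers moved in the same comparison. Ms4a1 (CD20) was the only B cell marker above the floor of the 2 on the panel, at 105 and 226 after PBS and at the floor after IL-4c (at least 4.37-fold lower, adjusted p = 7.97e-04). The follicular receptor Cxcr5 fell beside it, from 51.5 and 79.5 to the floor, which depended on the scaling and was lost without mouse 2. H2-DMb2 and H2-Ob, the only 2 of 8 MHC class II genes called (25.0%, against 46.3% of all tested genes), also fell to the floor (from 72.3 and 117 and from 80.4 and 61.5). With 1 common floor H2-Ob changed by -0.31 on the log2 scale and was not called. The part of B cell RNA in these falls was not tested. The other 6 class II genes were not called: H2-Aa was 1724 and 1933 after PBS and 1081, 1807 and 1034 after IL-4c (adjusted p = 0.240), and Cd74 was 3963 and 4865 against 2424, 3891 and 2298 (adjusted p = 0.197). Of 10 neutrophil markers, S100a8 and Csf3r were above the floor after PBS, with summed levels of 574 and 334, and at most 58.0 in any IL-4c mouse; the call of S100a8 was lost without mouse 2. In these sorted populations fewer cells of a type cannot be told apart from less RNA per cell.

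Itgam (CD11b) was at 8549 and 11245 after PBS and 10356, 9366 and 9631 after IL-4c, and Gata6, the transcription factor of the large peritoneal subset, was at 712 and 503 against 536, 608 and 654; neither was called (adjusted p = 1.00 for both). Yet 8 of the 11 large peritoneal macrophage markers fell, against 32.4% of all tested genes, with a median log2 change of -1.01: Csf1r, Timd4, Selp, Cxcl13, Alox15, Mertk, Fcgr1 and Marco, of which Alox15 depended on the scaling. Adgre1 (F4/80), used in the sort, was called higher, and this depended on the scaling. Of 9 tested markers of small peritoneal macrophages and monocytes, Irf4 rose, which depended on the scaling, and none was called lower. Their median log2 change was -0.66, and 3 were called lower when scaled to the other reference genes. Ccr2, the receptor that recruits monocytes, was 175 and 353 after PBS and 98.5, 121 and 34.8 after IL-4c (log2 change -1.72, SE 0.78, adjusted p = 0.0965).

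Transcription factors of myeloid identity split. Of 11 tested, 4 rose and 5 fell (81.8% called, against 46.3% of all tested genes). The AP-1 family members Batf and Batf3, the inhibitor Id2 and Nfatc2 rose, Batf3 not without mouse 1. With 1 common floor Batf3 changed by 0.097 on the log2 scale and was not called. Id2 went from 1109 and 1065 to 1878, 1990 and 2282 (log2 change 0.91, adjusted p = 0.00155). Cebpa fell from 1720 and 1231 to 499, 499 and 383 (log2 change -1.67, adjusted p = 0.00101) and Irf8 from 125 and 101 to the floor (at least 3.20-fold, adjusted p = 8.61e-06). The falls of Cebpb and Nfatc1 depended on the scaling.

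**Figure D3:**
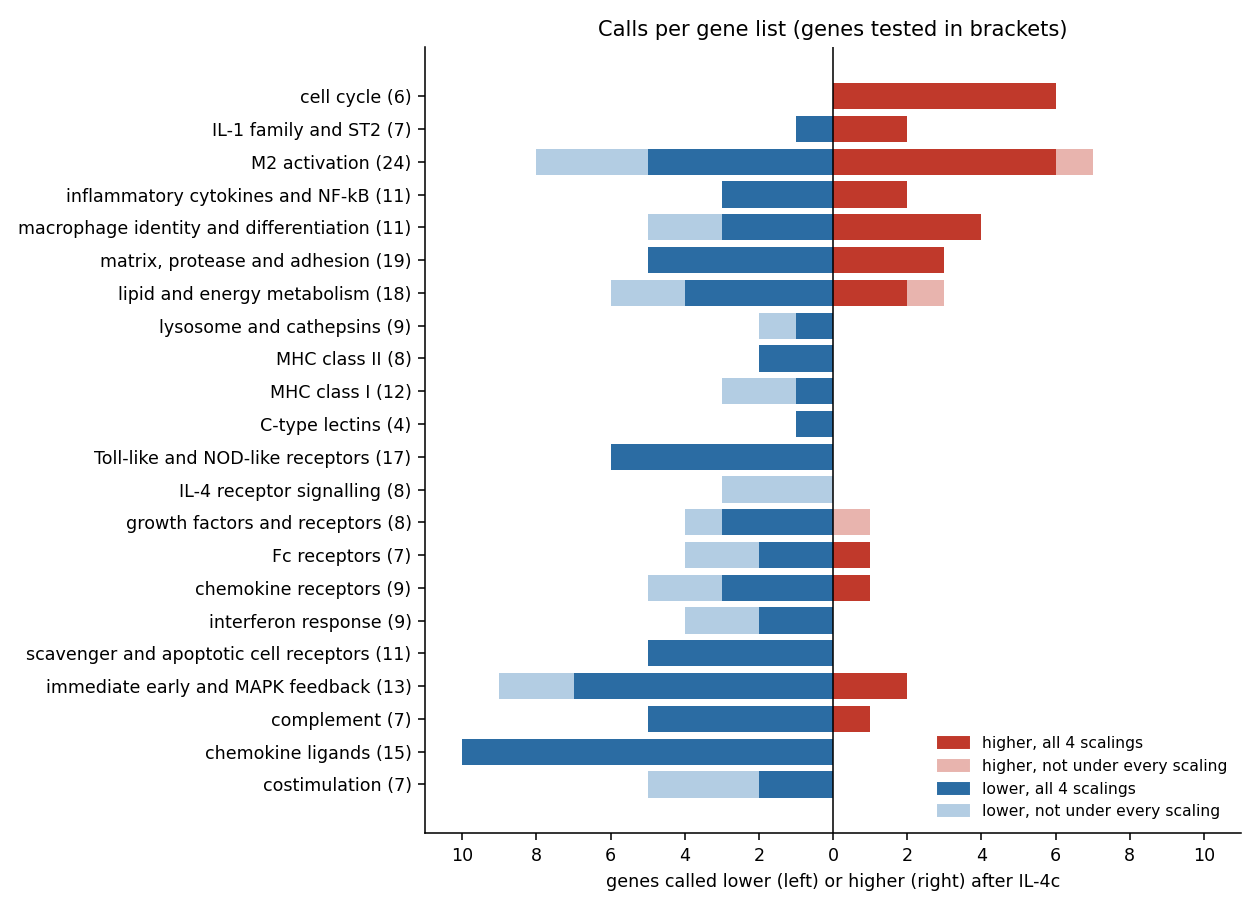
Calls in each of the 22 gene lists. Bars to the left count genes called lower after IL-4c and bars to the right genes called higher, out of the number tested in brackets; the dark part of a bar holds under all 4 scalings and the pale part does not. The cell cycle list has 6 of 6 higher, the chemokine ligands have 10 of 15 lower, and the M2 activation list has calls on both sides (7 and 8). Over all tested genes 13.9% were called higher and 32.4% lower.

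Chemokines fell broadly. Of 34 chemokine ligand genes on the panel 15 were tested, and 10 were called lower under all 4 scalings (66.7%, against 20.2% of all tested genes). None was called higher, and the median log2 change was -1.89. Besides Cxcl13, the largest falls were Ccl2, a monocyte attractant, from 180.1 and 258 to 37.8, the floor and the floor (log2 change -2.70, adjusted p = 0.00153), and Cxcl12, from 232 and 130.5 to the floor (at least 4.94-fold). Ccl3, another chemokine that attracts monocytes, went from 209 and 139 to the floor (at least 4.84-fold), and Ccl24, an eosinophil attractant often counted among M2 products, from 1968 and 2341 to 688, 587 and 387 (adjusted p = 0.0205). Ccl6 and Ccl9, the ligands with the highest mean values among those not called, did not pass the test; Ccl6 was 1761 and 3447 after PBS and 2536, 2331 and 1680 after IL-4c (adjusted p = 0.695). Without mouse 1, 7 of the 10 falls were called. Of 9 chemokine and formyl peptide receptors tested 5 fell, 3 of them under all 4 scalings, and Cxcr4 rose (66.7% called, against 46.3% of all tested genes). Cxcr4 went from the floor and 36.8 to 48.1, 64.3 and 56.8 (log2 change 0.74, adjusted p = 0.00430), a change of 0.07 with 1 common floor.

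Genes of the immediate early response and MAPK feedback mostly fell. Of 13 tested, 9 fell and 2 rose (84.6% called, against 46.3% of all tested genes), with a median log2 change of -0.86. Dusp1, a phosphatase of p38 and JNK, fell from 9998 and 6455 to 1877, 1407 and 1278 (5.35-fold, log2 change -2.42, SE 0.23, adjusted p = 3.46e-05). Rgs1 fell from 289 and 200.2 to 90.5, 78.9 and 66.1 (3.07-fold, adjusted p = 1.68e-04). Jun and Atf3, both parts of AP-1 and stress responses, fell from 267 and 243 to 139, 136 and 144 and from 424 and 309 to 209.5, 219.6 and 222. The falls of Myc and Btg2 depended on the scaling. Dusp2 was the exception among the phosphatases, going from the floor to 99.6, 110.4 and 121 (at least 2.85-fold higher, adjusted p = 7.41e-07).

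**Figure D4:**
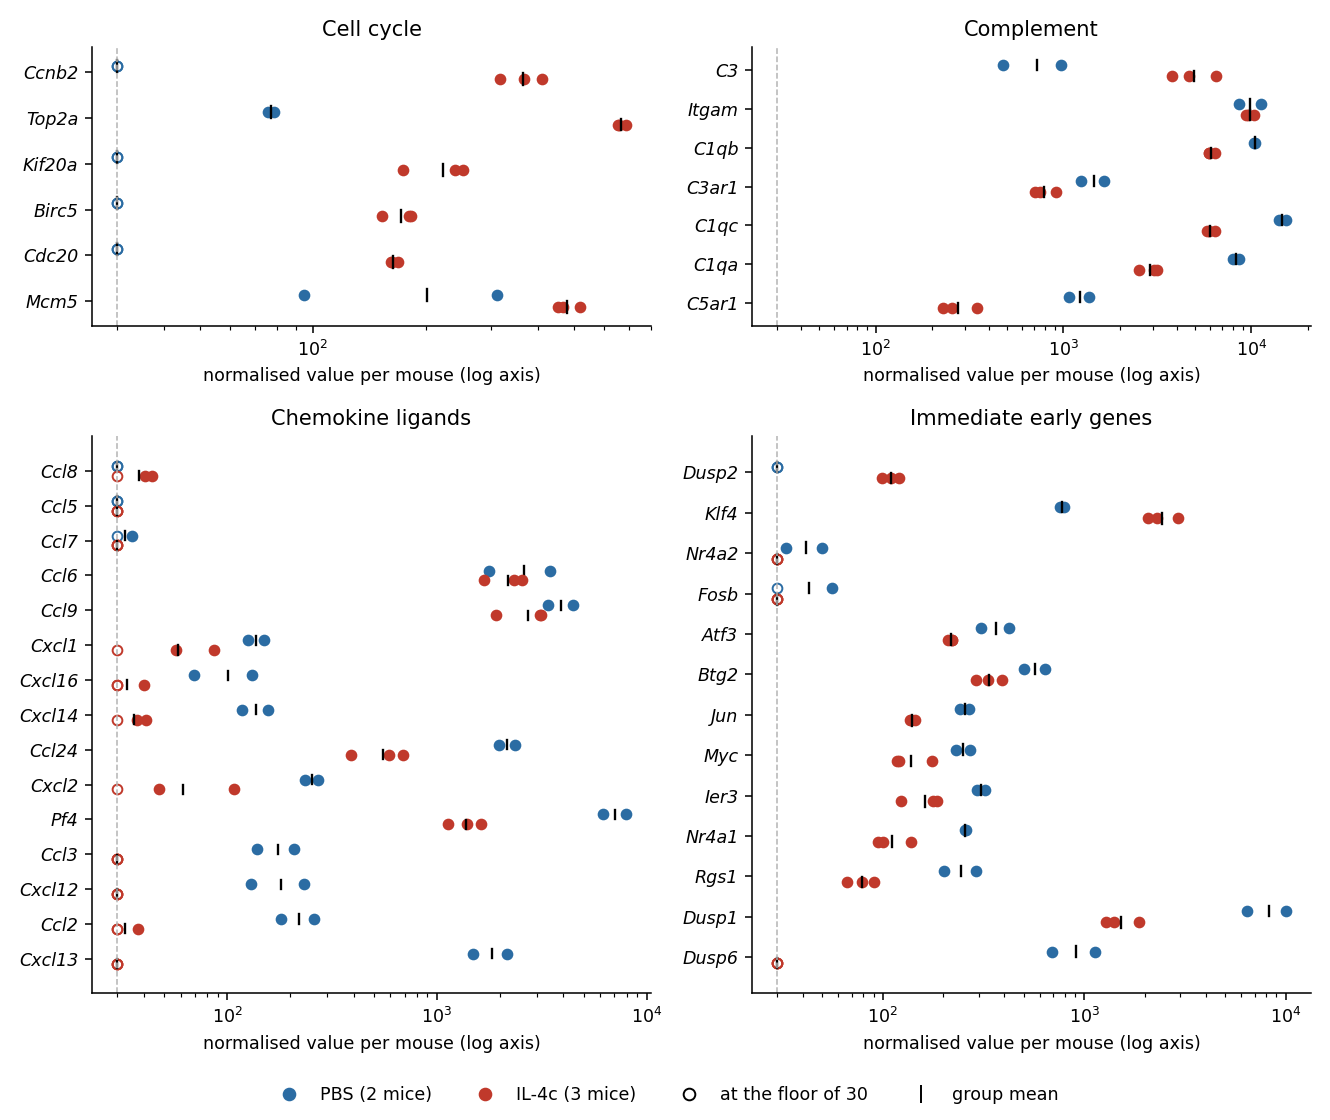
Every tested gene of 4 lists, by mouse, ordered from the largest rise to the largest fall. The x axes give the normalised value (log axes, each with its own range), blue points the 2 PBS mice, red points the 3 IL-4c mice, open points a value at the floor of 30 and black ticks the group mean. The IL-4c points lie to the right for all 6 cell cycle genes and for C3, and to the left for the 3 C1q genes, the 10 called chemokine ligands and the 9 called immediate early genes.

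Complement genes went both ways. C3, the central component, rose from 965 and 474 to 3775, 4643 and 6474 (7.15-fold, log2 change 2.84, adjusted p = 1.42e-04). The 3 chains of C1q, which tags debris and dying cells, fell: C1qa from 8572 and 7972 to 3164, 3016 and 2509 (2.87-fold, adjusted p = 1.76e-04), C1qc 2.42-fold and C1qb 1.71-fold. The anaphylatoxin receptors C5ar1 (4.45-fold, adjusted p = 0.00134) and C3ar1 (1.83-fold, adjusted p = 0.0122, lost without mouse 1) fell as well. All 6 calls held under all 4 scalings. Among the 7 Fc receptor genes tested the inhibitory receptor Fcgr2b rose from 1958 and 1612 to 3990, 4409 and 4729 (2.46-fold, adjusted p = 1.75e-04), and Fcgr1 and the activating Fcgr3 (2208 and 1790 to 988, 949 and 853, adjusted p = 0.00296) fell under every scaling. The falls of the signalling genes Syk and Vav1 depended on it.

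Of 17 Toll-like and NOD-like receptor genes tested 6 fell (35.3%, close to the 32.4% of all tested genes) and none rose. All 6 falls held under all 4 scalings, while centring called 2 genes of the list higher. Cd14, the co-receptor for lipopolysaccharide, fell from 1666 and 1230 to 346, 307 and 358 (4.25-fold, adjusted p = 1.36e-04), and Tlr2 from 121 and 134 to the floor (at least 3.62-fold). Tlr4 was 229.9 and 207 after PBS and 256, 283 and 297 after IL-4c and was not called (adjusted p = 0.169). Clec7a, the β-glucan receptor Dectin-1, fell from 457 and 229 to the floor, 37.6 and the floor (log2 change -3.28, adjusted p = 0.00124). Of 11 scavenger and apoptotic cell receptors 5 fell (45.5%, against 32.4% of all tested genes). Marco fell from 2766 and 3097 to 211, 267 and 341 (10.9-fold, adjusted p = 0.00382), with Cd36, Stab1, Mertk and Timd4, and Cd68 was not called (adjusted p = 0.545).

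In lipid and energy metabolism, 6 of 18 tested genes fell and 3 rose, so that 9 of 18 were called, against 46.3% of all tested genes. Apoe, the lipid carrier apolipoprotein E, was 38349 and 22003 after PBS and measured 458, 525 and 625 after IL-4c, a 54.5-fold fall (log2 change -5.77, SE 0.49, adjusted p = 1.50e-05). Lpl, lipoprotein lipase, fell from 1216 and 799 to 90.5, 201 and 45.2 (10.4-fold, adjusted p = 0.00897, lost without mouse 1). Sdha of the citric acid cycle, also 1 of the 14 reference genes, rose from 322 and 303 to 473, 459 and 488 (1.51-fold, adjusted p = 0.00422), and the rise of Acly, which makes cytosolic acetyl-CoA, depended on the scaling.

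Of 7 costimulation genes, whose products help to activate T cells, 5 fell (71.4%, against 32.4% of all tested genes). The median log2 change over the 7 was -0.65. The 2 falls that held under all 4 scalings were Cd86, from 270.1 and 158 to 71.0, 80.1 and 109 (2.41-fold, adjusted p = 0.00378, lost without mouse 1), and Cd40, from 138 and 122 to 66.4, 67.9 and 69.6 (1.90-fold, adjusted p = 0.00412). Of 12 MHC class I genes 3 fell (25.0%, under the 32.4% of all tested genes), 1 of them under all 4 scalings. The abundant H2-K1 and H2-D1 were not called (adjusted p = 0.838 and 0.124). Of 9 interferon response genes 4 fell (44.4%, against 32.4% of all tested genes), Irf8 and Ifnar1 under all 4 scalings. Of 11 inflammatory cytokine and NF-kB genes 5 were called (45.5%, close to the 46.3% of all tested genes). The IκB family members Nfkbia and Nfkbiz and the survival gene Birc3 fell beside the rises of Il6 and Il1a.

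Of 8 growth factors and receptors 5 were called (62.5%, against 46.3% of all tested genes). Csf1r, the receptor for macrophage colony-stimulating factor, fell from 3643 and 2656 to 1532, 1622 and 1594 (1.97-fold, adjusted p = 0.00142), and Csf3r, Hgf and Tgfb1 fell too. The call of Hgf was lost without mouse 1, and those of Tgfb1 and of Csf2ra, which rose 1.27-fold, depended on the scaling. Of 19 matrix, protease and adhesion genes 8 were called (42.1%, under the 46.3% of all tested genes). Itgb7, Itga5 and Adam8 (not without mouse 1) rose, and Fn1, Mmp9, Itga4, Selp and Fscn1 fell. With 1 common floor Itga5 changed by 0.44 and Mmp9 by -0.31 on the log2 scale, and neither was called. Itgb7 went from 481 and 383 to 1194, 975 and 1309 (2.68-fold, adjusted p = 1.76e-04), and Itga4, which encodes a partner of the same integrin, from 752 and 576 to 255, 252 and 246 (2.61-fold, adjusted p = 0.00119). Of 9 lysosome genes 2 were called (22.2%, against 46.3% of all tested genes). Ctss fell, and the fall of Rab20 depended on the scaling and was lost without mouse 1. Ctsd, at 10380 and 10697 against 11336, 9729 and 9292, was not called (adjusted p = 0.809).

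The wild-type response was then set against that of the knockout. The test of the difference called 9 of 445 genes (2.02%), of which 8 were also called in wild-type mice: Retnla, which the allele removes, Dusp2, Fscn1, Atf3, Cxcr4, Jun, Batf and Fpr1. Dusp2 rose in all 3 wild-type IL-4c mice and was at the floor in all 6 knockout mice (adjusted p of the difference 5.53e-05). Fscn1 ended at the floor in wild-type mice and at most at 32.3 in the knockout, from 474 and 358 in PBS-treated wild-type and 99.0 and 120.2 in PBS-treated knockout mice (adjusted p of the difference 2.80e-04). With both genotypes at or near the floor, this difference lies mostly in the PBS levels, and the full falls could not be compared. Batf rose in wild-type mice, from 54.7 and 51.7 to 90.5, 95.8 and 111, and was 87.8 and 75.1 in PBS-treated and between 71.3 and 87.2 in IL-4c-treated knockout mice (adjusted p of the difference 0.0345). Without mouse 1 the number called was 34. For the other wild-type calls a difference between genotypes was not called, which does not show that the responses were alike.

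**Figure D5:**
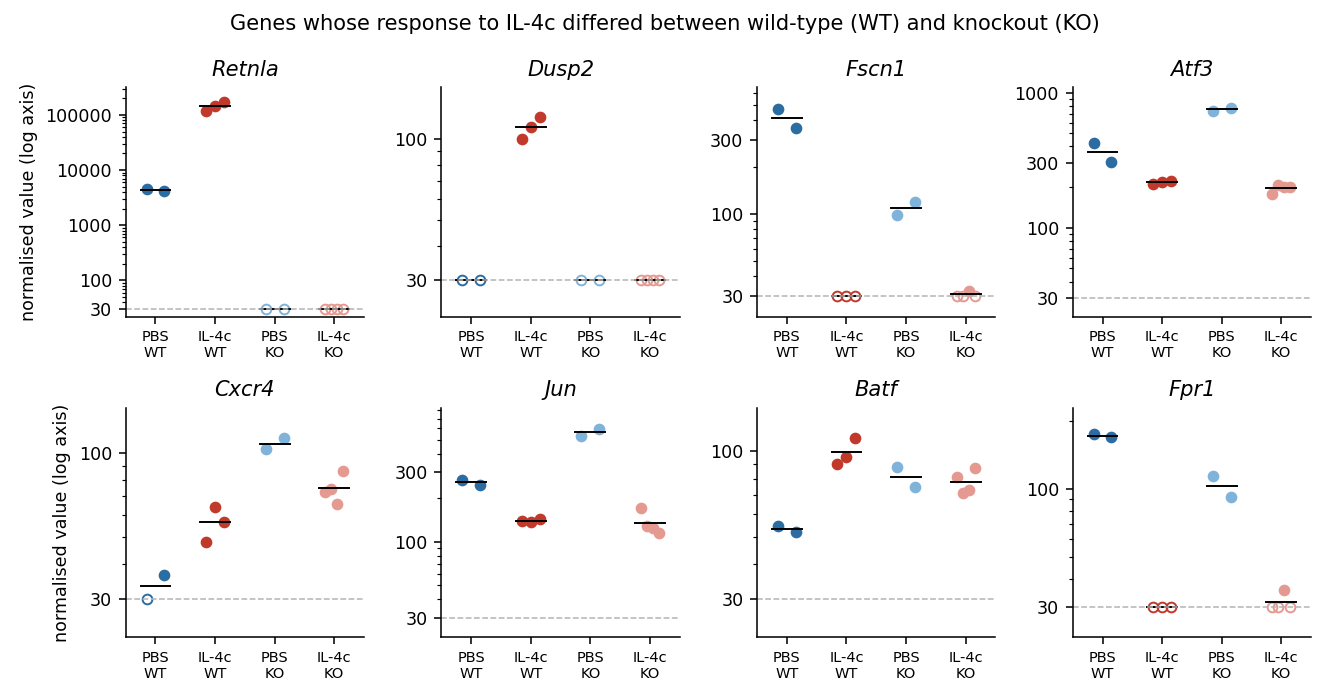
The 8 genes called in wild-type mice whose response to IL-4c also differed between genotypes. Each point is 1 mouse, the y axes give the normalised value (log axes, each with its own range), horizontal bars are group means, open points lie at the floor of 30 (dashed), and WT and KO are wild-type and knockout. Retnla is above the floor in wild-type mice only and Dusp2 in IL-4c-treated wild-type mice only; both PBS-treated knockout mice lie below the PBS-treated wild-type mice for Fscn1 and Fpr1 and above them for Atf3, Jun, Cxcr4 and Batf.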

How the data were processed

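CD11b+F4/80+ peritoneal macrophages of 11 mice were measured, 2 PBS-treated and 3 IL-4c-treated Rα+/+ and 2 PBS-treated and 4 IL-4c-treated RαTd/Td. The paper removed a further IL-4c-treated Rα+/+ sample, whose expression grouped with the PBS-treated samples. It names ineffective IL-4c delivery as the likely reason, from less RELMα and fewer peritoneal cells. That sample was not analysed here. The calls and the lack of overlap hold only for the 3 IL-4c-treated Rα+/+ mice kept. The authors normalised Nanostring counts in the Advanced Analysis software to Eef1g, Gusb, Oaz1 and Rpl19; the deposited gene values are linear signal in normalised counts, with low values set to 30, while control probes are raw counts. Software version and background subtraction are not given in the sources used here. Values up to 1000 were whole multiples, to within 0.1 counts, of a factor that is constant in each mouse; division by this factor gave the depth.

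Values were tested as log2(value + 1) with limma 3.58.1 in R 4.3.3, 1 coefficient per group over all 11 mice, with Benjamini-Hochberg adjustment over 445 genes; every adjusted p in the text is limma's, and 0.05 or less was called. The p-values measure the spread between mice. Folds against a group at the floor are limits, set against the geometric mean of those mice's lowest measured values. Alternatives were other filters, scalings, pseudocounts and floors, each mouse left out, only the Rα+/+ groups, and an unpaired t-test. The fit was tested on simulated data that held no floor. Named genes were Retnla, Arg1, the 12 largest called rises and falls without overlap, genes at the floor in 1 group only, the leading called and uncalled genes of each list, genes differing between genotypes and examples that depend on scaling. The members and lists were chosen with earlier results of these data known. The values of some list members are not reported here.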

Additional observations from a re-analysis of the deposited data

Results flagged for a closer look

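The response to IL-4c differed between genotypes, by the test of the difference itself (limma), in 8 genes called in wild-type mice. The response in the knockout minus that in the wild-type, on the log2 scale, was -5.03 for Retnla, -1.84 for Dusp2, -1.27 for Cxcr4, -1.22 for Jun, -1.19 for Atf3, -0.94 for Batf, 0.81 for Fpr1 and 1.93 for Fscn1. Retnla is the gene the allele removes. For Dusp2, Fscn1 and Fpr1 the values at the floor make the size and the p-value depend on the floor. Fscn1 and Fpr1 ended at or near the floor in both genotypes. Their difference thus lies mostly in the PBS levels, and the full falls could not be compared. No alternative removed the floor. Jun measured 267 and 243 in PBS-treated wild-type mice and 533 and 595 in PBS-treated knockout mice. After IL-4c it was 136 to 144 in wild-type and 114 to 170 in knockout mice. Atf3 was 424 and 309 against 727 and 777 after PBS, and 209.5 to 222 against 179 to 208.8 after IL-4c. For Jun and Atf3 the difference thus also lies mostly in the PBS levels. Cxcr4 and Batf too were higher in PBS-treated knockout than in PBS-treated wild-type mice. Retnla, Fscn1 and Dusp2 were called under every alternative that gave them a value, Atf3 in 18 of 20, Cxcr4 in 14 of 18, Jun in 13 of 20, Batf in 8 of 19 and Fpr1 in 8 of 18. Cxcr4 was not called with 1 common floor (adjusted p = 0.0832, over a range of 0.00382 to 0.0982) nor without knockout mouse 4 or wild-type mouse 6 or 7. Atf3 was not called without mouse 4 or 6, and Jun was not called after centring or without wild-type mouse 2, 5, 6 or 7 or knockout mouse 4 or 10. Why the responses differed was not tested.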

How the results depend on the processing

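With 2 PBS mice, all values here are limited by the number of animals, and levels under about 30 to 48 could not be measured. No paired analysis was possible because the groups share no mouse numbers. The count test planned for recovered counts was not run; values at the floor of 30 hold no count. No called gene was called in the opposite direction under any alternative. Requiring more than 30 in every mouse left 39 genes called higher, centring gave 106 higher and 92 lower, and quantile normalization gave 104 higher. Leaving out each mouse gave between 147 and 229 calls, between 50 and 69 higher and between 97 and 161 lower, all 3 lowest without mouse 1. The genes differing between genotypes numbered 9, but 4 with a mean above 100, 2 above 30 in every mouse, 18 after quantile normalization, 16 with 1 common floor, 69 at an unadjusted p of 0.05, and between 3 and 34 with a mouse left out, 34 without mouse 1 and 3 without knockout mouse 4 or mouse 6; without mouse 5 or mouse 7 there were 5. An unpaired t-test on the same log2 values called 72 higher and 144 lower unadjusted, and 48 and 100 after Benjamini-Hochberg. It gave no value for 19 genes without spread. The paper names this test for pathway scores and for comparisons of 2 groups, and does not name its test for single genes. Of 111 called genes named, 68 kept the call under every alternative that gave them a value. Of 462 counts per list under an alternative, 34 moved by over 1.5 times.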

Other observations

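Of the 445 genes tested, 229 were in none of the 22 lists, and 31 of these were called higher and 58 lower after IL-4c. That is 38.9% called, against 46.3% of all tested genes, with a median log2 change of -0.09. Among them, Ear3, a further member of the ribonuclease family of Rnase2a, went from the floor in both PBS mice to 145, 254 and 107 (at least 4.10-fold, limma adjusted p = 0.00185). Sema4b, a semaphorin, went from the floor to 111, 94.6 and 118 (at least 2.79-fold, adjusted p = 1.09e-04). In the other direction, Marcksl1 fell from 178 and 142 to the floor (at least 4.52-fold, adjusted p = 6.68e-04), and Ets1, a transcription factor prominent in lymphocytes, from 82.0 and 84.0 to the floor (at least 2.36-fold, adjusted p = 1.58e-05).

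The largest changes whose calls depended on the scaling were those of Cd1d1, which presents lipid antigens (log2 change -1.17), Icosl, the ligand of ICOS (-1.16), and C4a, a complement component (-1.15), all called lower on the housekeeping scale.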
